A study of Homo sapiens with 6 samples.

Results

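Intermediate filament genes other than keratins were examined in RNA-seq of DLD1 cells, a human colorectal cancer line. The group has 10 members of the 58884 genes in the table, namely VIM, DES, GFAP, NEFL, NEFM, NEFH, INA, NES, SYNM and LMNA. They were matched to Ensembl identifiers by GENCODE symbol. The family was chosen by its name and by values already known from this comparison, in which VIM and NEFL stood out, so the values of the members are described here and not tested. There were 3 libraries of DLD1 parental cells and 3 of DLD1 p85β K477A/R478A mutant cells (p85β KR-AA), with no other treatment or time given. DLD1 cells carry a helical domain mutation of PIK3CA, which both conditions share. The 2 changes lie in the nuclear localization sequence of p85β, the regulatory PI3K subunit made from PIK3R2, and were introduced into the cells' own gene with CRISPR/Cas9. The titles and genotypes give the changes as K477A and R478A in every mutant library, while the source names of replicates 2 and 3 read R479A and R480A in place of R478A. The study describes independently derived homozygous mutant clones, but the libraries carry no clone name, and nothing states that replicates are separate cultures.

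Intermediate filaments are rope-like polymers of coiled-coil proteins that give cells and nuclei their mechanical strength. Vimentin, desmin and GFAP are type III proteins that can form filaments on their own, in mesenchymal cells, muscle and astrocytes respectively. The type IV proteins are the neurofilament subunits, α-internexin, nestin and synemin, and nestin and synemin need a partner such as vimentin or desmin to assemble. LMNA encodes lamins A and C of the nuclear lamina, the type V filaments. Epithelial cells such as those of the colon build their cytoplasmic filaments mainly from keratins.

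Gene counts were estimated counts, which summed to between 20301396 and 26712816 per library. Values are given as CPM, counts scaled by TMM to a common library size (counts per 1e+06), and as TPM where genes are compared with each other, since TPM corrects for gene length. A total of 3 counts, taken as the limit of detection, stood for 0.0817 to 0.218 CPM, and this limit covers counting error only. Calls required a 3-fold difference or more together with an adjusted p below 0.01 (edgeR quasi-likelihood test, Benjamini-Hochberg adjustment over 16059 genes). PIK3R2, the targeted gene, had 12.3 to 34.8 CPM in parental and 4.53 to 16.6 CPM in mutant libraries, but ENSG00000268173, a readthrough gene, spans its whole length and makes these values uncertain. Counts do not show the changed bases. The conditions differed widely, with 46.2% of the tested genes called. They also differed in library make-up, as the share of counts on genes over 4000 bases was 9.49% to 12.1% in parental and 27.7% to 28.9% in mutant libraries, and the 20 highest genes 17.9% to 20.4% and 11.0% to 12.1%. The part of this shift in the values of single genes was not tested beyond the length and GC offsets given below, and NEFL, NES and SYNM are over that length while VIM is not. TMM and the library total give different pictures of this contrast, since scaling by totals moved the median log2 fold change over tested genes by 0.92, from 0.32 to 1.24. Less RNA per cell and fewer cells of a type cannot be told apart in these bulk samples.

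The stretches of 250 bases before the RefSeq start sites (GRCh38.p14) of VIM, SYNM, NES and INA are shown because these genes took different courses, VIM and SYNM up, NES without a call and INA at 0 counts throughout. Capitals mark CG dinucleotides. The windows are chr10:17227991-17228240 (plus strand) for VIM, chr15:99104830-99105079 (plus strand) for SYNM, chr1:156677408-156677657 (minus strand) for NES and chr10:103276888-103277137 (plus strand) for INA.
VIM: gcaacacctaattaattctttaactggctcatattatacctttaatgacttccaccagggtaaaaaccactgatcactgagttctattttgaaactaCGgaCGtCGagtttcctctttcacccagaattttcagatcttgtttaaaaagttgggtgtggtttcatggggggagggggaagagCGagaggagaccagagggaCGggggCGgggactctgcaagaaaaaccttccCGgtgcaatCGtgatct
SYNM: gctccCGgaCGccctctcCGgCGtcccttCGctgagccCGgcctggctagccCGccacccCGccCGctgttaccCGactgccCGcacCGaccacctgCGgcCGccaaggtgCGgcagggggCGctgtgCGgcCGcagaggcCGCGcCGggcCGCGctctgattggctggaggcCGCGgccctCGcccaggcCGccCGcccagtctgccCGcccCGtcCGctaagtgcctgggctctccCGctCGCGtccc
NES: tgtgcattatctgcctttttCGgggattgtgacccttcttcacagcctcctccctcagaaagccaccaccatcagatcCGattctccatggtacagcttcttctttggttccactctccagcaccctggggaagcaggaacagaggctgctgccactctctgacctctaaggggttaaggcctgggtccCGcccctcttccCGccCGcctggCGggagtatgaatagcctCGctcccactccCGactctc
INA: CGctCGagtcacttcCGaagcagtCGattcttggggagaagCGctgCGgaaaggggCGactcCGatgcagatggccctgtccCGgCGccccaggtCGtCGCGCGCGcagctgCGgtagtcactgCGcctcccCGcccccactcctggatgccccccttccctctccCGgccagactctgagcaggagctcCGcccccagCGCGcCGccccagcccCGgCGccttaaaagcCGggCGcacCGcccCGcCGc
CG occurred 8 times before VIM and 8 times before NES, 30 times before INA and 34 times before SYNM, against a median of 11 over 35116 RefSeq windows of the same length. The 3 LMNA windows held 18 to 23. No window was available for NEFL, NEFM, NEFH, DES or GFAP. Of the genes that were up and had a window, VIM thus lay under that median and SYNM above it, and INA, without counts, lay above it too. GGGCGG, the GC box, was searched on both strands and shares its CG with that count. It was found 1 time before VIM, 2 times before NES, 4 times before each of SYNM and INA and 1 or 2 times in the LMNA windows, and 42.6% of all windows hold it. CACCTG, an E-box that ZEB and SNAI proteins bind, occurred on either strand 1 time before SYNM and in 1 of the 3 LMNA windows, and 17.5% of all windows hold it. TATAAA (10.7% of all windows) and the AP-1 motif TGANTCA (6.57%) were found in none of these windows, both strands searched. Such matches are letters in a window and not shown to be sites in use.

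Of the members, 7 had enough counts to be tested. VIM, NEFL, NEFM and SYNM passed the thresholds upwards in p85β KR-AA cells, and DES and LMNA downwards. Over all tested genes 28.6% were called higher and 17.6% lower, and as the members were chosen on this comparison nothing is read from their count. In 6 of the 7, the CPM of mutant and parental libraries did not overlap, which was so in 83.4% of all tested genes. The genes of the family did not move as a block: the type III genes alone went up (VIM), down (DES) and without a test (GFAP).

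**Figure D1:**
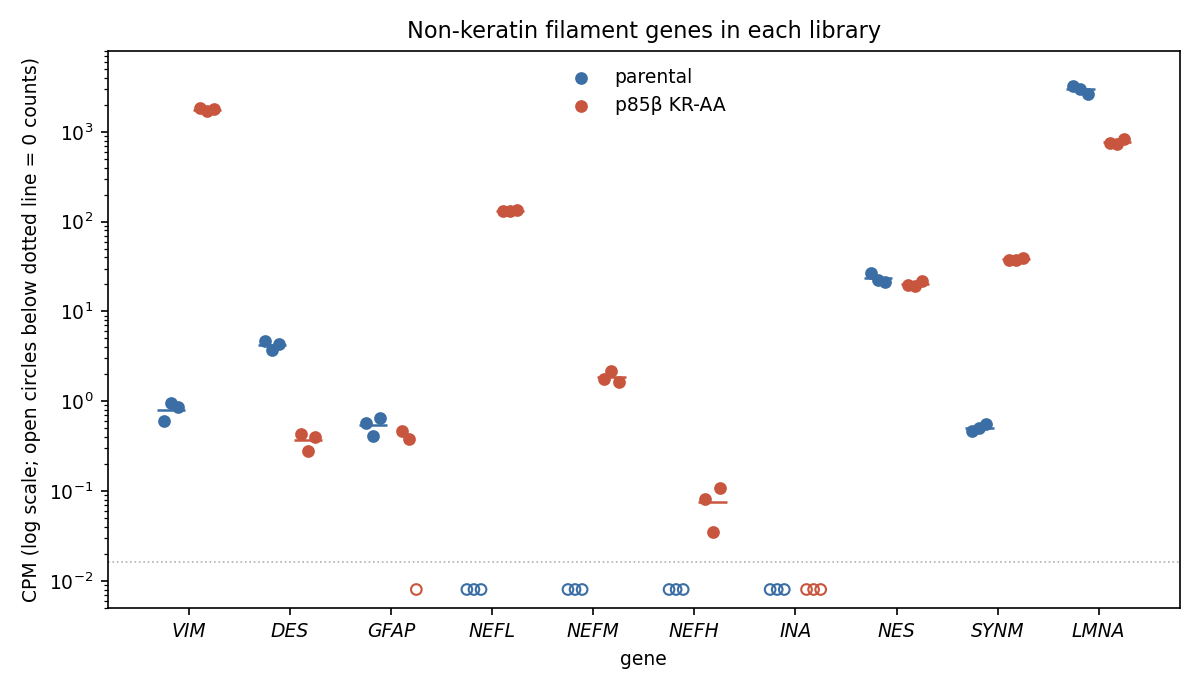
CPM (log axis) of the 10 genes in each of the 3 parental (blue) and 3 p85β KR-AA (red) libraries. Points are libraries, short lines are means of groups with counts in every library, and open circles under the dotted line are libraries with 0 counts. VIM goes from under 1 CPM to between 1691 and 1826 CPM, NEFL from 0 to between 130.1 and 133.7 CPM, whereas NES overlaps between conditions.

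VIM (ENSG00000026025, chromosome 10 of GRCh37, 17270240 to 17279592), the vimentin gene, had 9, 13 and 14 counts in parental replicates 1, 2 and 3 and 67013, 48628 and 49227 in the mutant replicates. The lowest mutant library thus stood far above the highest parental one. In CPM the means were 0.802 ± 0.182 and 1769.8 ± 70.0 (SD, n = 3 each), which gave 11.10 as log2 fold change (standard error 0.21). Ranked by TPM, VIM was the gene at rank 71, 74 and 77 in the mutant libraries and between 12764 and 13844 in the parental ones. The mutant libraries differed little among themselves, with a coefficient of variation of 3.95%. VIM-AS1 and another antisense lncRNA overlap VIM and had at most 6 counts in any library.
DES, which encodes the muscle filament protein desmin (ENSG00000175084, chromosome 2, 220283099 to 220291457), went the other way. It had 71, 51 and 71 counts in parental libraries and 16, 8 and 11 in mutant libraries, all of them low. The means were 4.27 ± 0.51 and 0.372 ± 0.083 CPM (SD, n = 3 each), 11.5-fold lower in mutant cells (log2 fold change -3.49, standard error 0.30).
GFAP, the astrocyte filament gene (ENSG00000131095, chromosome 17, 42980527 to 42994305), was near the limit of detection and was not tested. Its estimated counts were 8.52, 5.70 and 10.49 in parental libraries and 17.24, 10.90 and 0 in mutant libraries, so that the groups overlapped. They are uncertain, because CCDC103 and FAM187A overlap GFAP on the opposite strand, had means of 83.8 and 70.3 counts in parental libraries, and the library kit named in the labels does not mark strand.

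Among the neurofilament genes, 1 of the 3 subunits came up far above the others. NEFL, the light subunit and core of the neurofilament (ENSG00000277586, chromosome 8, 24808468 to 24814235), had 0 counts in every parental library and 4773, 3752 and 3672 in the mutant libraries. Its mean of 131.4 ± 1.96 CPM (SD, n = 3) lay at least 602-fold higher than the parental limit of 3 counts, and its coefficient of variation in mutant libraries, 1.49%, was the smallest of the members with counts there. NEFM, the medium subunit (ENSG00000104722, chromosome 8, 24771271 to 24776611), also had no parental count and reached only 64.44, 63.02 and 45.00 estimated counts. Its mean was 1.86 ± 0.29 CPM (SD, n = 3), which is at least 8.53-fold higher than that limit. An antisense lncRNA that overlaps NEFM, ENSG00000272163, had 0 counts in parental and 17.98 to 22 in mutant libraries, and reads shared between both cannot be told apart without strand.
NEFM and NEFL are neighbours, separated by 31856 bases with no protein-coding gene between them. Per length, NEFL stood 57.5 ± 9.0 times above NEFM in the mutant libraries (SD, n = 3, range 47.7 to 65.4). NEFH, the heavy subunit (ENSG00000100285, chromosome 22, 29876207 to 29887379), had 0 counts in parental libraries and 3, 1 and 3 in mutant libraries, at or under the limit of detection. INA, the gene of α-internexin (ENSG00000148798, chromosome 10, 105036895 to 105050103), had 0 counts in all 6 libraries, which allows up to 0.218 CPM in a parental and 0.109 CPM in a mutant library. NT5C2, which overlaps the start of INA on the other strand, had 274.89 to 457.36 counts in parental and 1257 to 1721 in mutant libraries. NEFL was therefore the single neurofilament subunit above 3 CPM.
With so many parental zeros, only lower bounds hold for NEFL and NEFM. SYNM is the member just outside the limit of 3 parental counts, with 7 to 9.

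SYNM encodes synemin, which links filaments to sites of attachment (ENSG00000182253, chromosome 15, 99638420 to 99675798). It had 7, 7 and 9 counts in parental libraries and 1367, 1080.5 and 1094 in mutant libraries. The groups were far apart, with means of 0.509 ± 0.045 and 38.2 ± 1.40 CPM (SD, n = 3 each), which gave 6.21 as log2 fold change (standard error 0.22). SYNM-AS2 overlaps it on the opposite strand, with at most 1 count in a parental library and 18.5 to 31.0 in mutant libraries.
NES, the gene of nestin, a filament protein of neural progenitors and dividing endothelium (ENSG00000132688, chromosome 1, 156638555 to 156647199), was already present in parental cells. It had 401, 306 and 344 counts there and 726, 551 and 600 in mutant cells. After TMM scaling these were 26.6, 22.3 and 21.2 CPM against 19.8, 19.2 and 21.8 CPM, and the groups overlapped. The log2 fold change was -0.21 with a 95% interval of -0.55 to 0.14 and was not called. In TPM, NES was higher in every mutant library (9.44 ± 0.43 against 4.19 ± 0.67, SD, n = 3 each). By library totals its log2 fold change was 0.72, so that its direction depends on the scaling.

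LMNA (ENSG00000160789, chromosome 1, 156052364 to 156109872) was the most abundant member in parental cells. It had 49450, 41311 and 43097 counts in parental libraries and 27906, 21220 and 23118 in mutant libraries. The means were 2981 ± 313 and 780.0 ± 54.4 CPM (SD, n = 3 each), 3.82-fold lower in mutant cells (log2 fold change -1.93, standard error 0.13). The decrease was smaller without TMM, with a log2 fold change of -1.01 by library totals, and -0.91 when gene length and GC content were both corrected for, each under the threshold of 3-fold. Gene counts do not separate lamin A from lamin C, which are splice forms.
Ratios of TPM within a library do not depend on how libraries are scaled to each other, though they do on corrections made gene by gene. LMNA stood 24.02 ± 3.84 times above LMNB1 per length in parental and 9.87 ± 1.10 times in mutant libraries (SD, n = 3 each), without overlap. With the length and GC offsets the order of the 2 genes turned, since the log2 fold change was -0.91 for LMNA and -1.37 for LMNB1. Against LMNB2, the other B-type lamin, it stood 4.31 ± 0.77 and 5.001 ± 0.133 times higher, and there the ranges overlapped (3.74 to 5.19 and 4.89 to 5.15). An exact permutation test of 3 against 3 libraries cannot go below p = 0.1, and none was run.

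Per length, NES and DES held the largest shares of the cytoplasmic members in parental libraries, and VIM in mutant libraries. NES made up 61.3 ± 3.1% and DES 27.7 ± 1.8% of the summed TPM of the 9 cytoplasmic genes in parental libraries, where VIM had 5.54 ± 1.66% (SD, n = 3 each). In mutant libraries VIM made up 95.1 ± 0.2%, NEFL 3.73 ± 0.14%, SYNM 0.599 ± 0.028% and NES 0.421 ± 0.025% (SD, n = 3 each). The parental shares divide a low level, with means of 4.19 TPM for NES, 1.91 for DES and 0.369 for VIM. In mutant libraries these means were 9.44, 0.428 and 2132.7 TPM. NES thus fell in share although its TPM was higher. For each SYNM transcript there were 5.38 ± 0.98 of VIM in parental and 159.1 ± 8.0 in mutant libraries, and for each NES transcript 0.0910 ± 0.0287 and 226.3 ± 13.4 (SD, n = 3 each, in TPM). Vimentin mRNA thus lay below that of nestin in parental cells and above it in mutant cells, and above that of synemin in both. With LMNA included, the sum of the 10 members was 940.7 ± 111.2 TPM in parental and 2878 ± 40.3 TPM in mutant libraries, and LMNA was 99.3% and 22.1% of it. In CPM with TMM scaling the sum did not go up, at 2684 to 3314 in parental and 2620 to 2831 in mutant libraries, which overlapped.

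**Figure D2:**
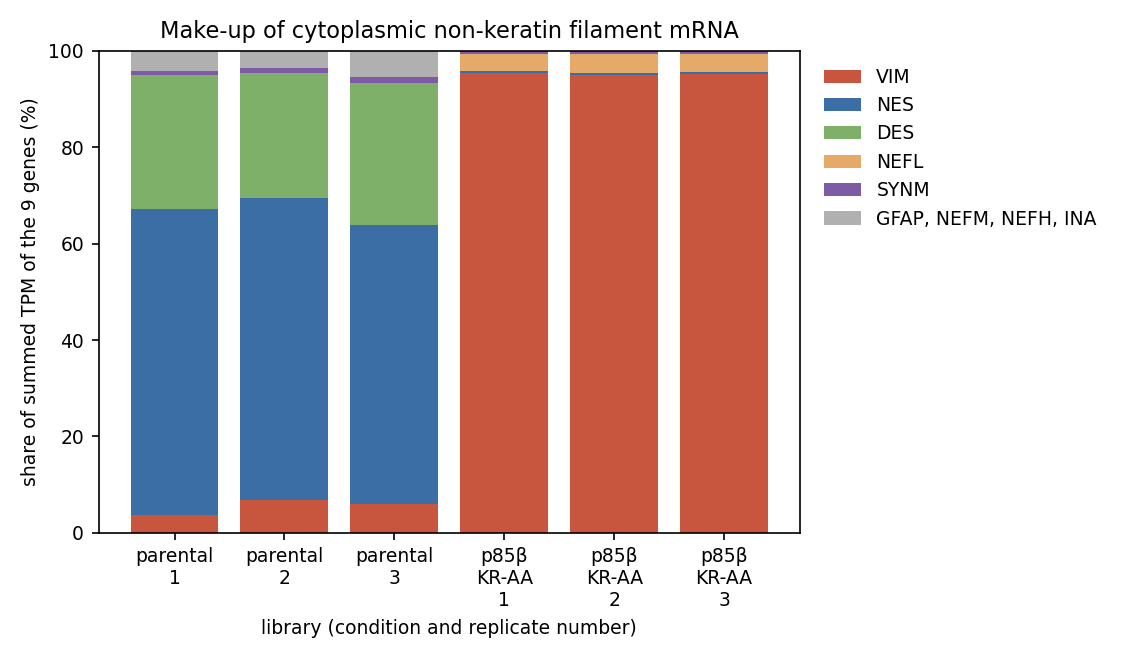
Share (%) of each gene in the summed TPM of the 9 cytoplasmic non-keratin filament genes, 1 bar per library. NES (blue) and DES (green) fill most of the 3 parental bars, and VIM (red) fills 95.0% to 95.3% of the 3 p85β KR-AA bars. Bars show shares and not levels, as parental means were 4.19 TPM for NES and 1.91 TPM for DES, and the mutant mean of VIM was 2132.7 TPM.

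KRT8 mRNA remained above vimentin mRNA. KRT8, a keratin of simple epithelia, had 21845 ± 1572 TPM in parental and 6841 ± 477.8 TPM in mutant libraries (SD, n = 3 each). VIM was 0.00171 ± 0.00045% of KRT8 in parental libraries and 31.3 ± 2.5% in mutant libraries (SD, n = 3 each, in TPM). KRT8 thus still stood 2.99 to 3.51 times above VIM in mutant cells. Of 5 keratins of simple epithelia 4 were called lower, namely KRT7 (log2 fold change -4.17), KRT8 (-3.07), KRT18 (-2.86) and KRT19 (-2.72), and with the length and GC offsets 1 was.

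Directions of VIM, SYNM, DES and LMNA were the same under each of 5 scalings, and that of NES was not. VIM lay between 10.998 and 12.02, SYNM between 4.36 and 7.13, DES between -3.63 and -2.04 and LMNA between -2.29 and -0.91 on the log2 scale. NES ranged from -1.62 with a length offset, where it was called lower, to 0.72 by library totals. NEFL and NEFM, whose fitted values are no bounds, were called higher under all 5. Both had 0 counts in every parental library and passed the filter only through mutant libraries, so nothing is read from these calls.

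**Figure D3:**
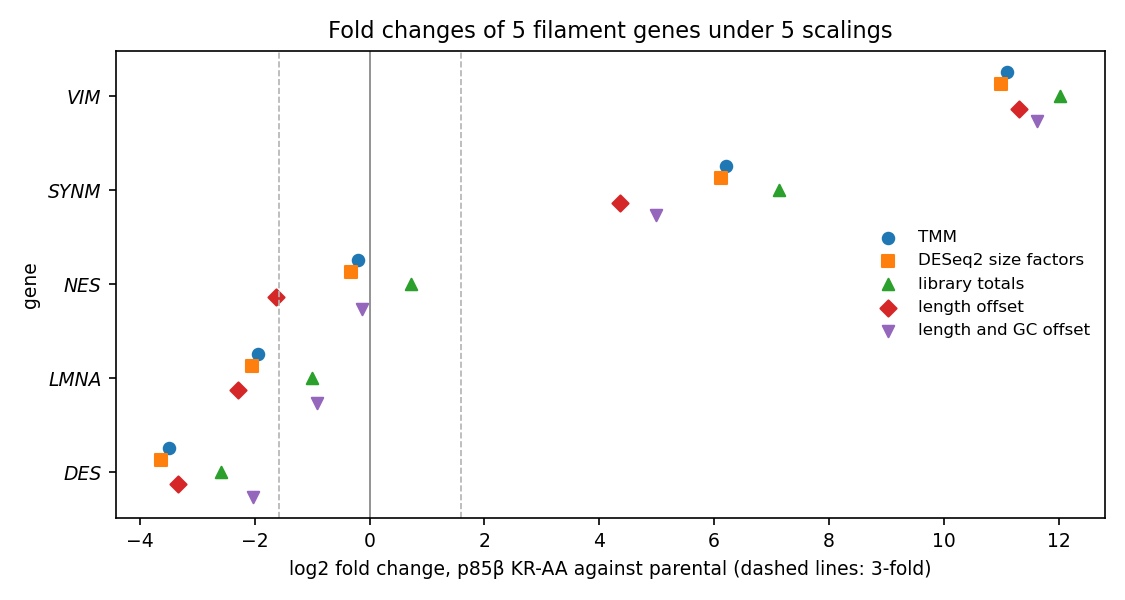
Log2 fold change (p85β KR-AA against parental) of VIM, SYNM, NES, LMNA and DES with TMM, DESeq2 size factors, library totals, an offset for gene length, and length and GC offsets together. Dashed lines mark 3-fold. VIM and SYNM stay far to the right, DES stays left of the 3-fold line, LMNA crosses that line and NES crosses 0.

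The 5 tested genes whose pattern across the 6 libraries was nearest to that of VIM (root mean square distance of centred log2 CPM, prior count 2) were RPS4Y1, a ribosomal protein gene of the Y chromosome (0.18), FBN2 (0.26), NEFL (0.28), COL8A1 (0.31) and SERPINB2 (0.31). Their mutant means lay between 131.4 and 376.3 CPM and their parental means at or under 0.069 CPM. With a contrast this large the distance mostly reflects the difference between conditions, which all 6 libraries share. At parental means this low the prior count sets most of the parental values of these genes, so nearness to VIM depends on it. RPS4Y1 had means of 0 CPM in parental and 174.8 CPM in mutant libraries. Whether the cells of the 2 conditions differ in more than the p85β change was not tested, so other differences and the mutation cannot be told apart.

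Genes that work with filaments were taken from lists of known partners. Each count is read against the 28.6% called higher and 17.6% called lower over all genes. Genes with at most 3 counts in each parental library are left out of that reading, and so are CRYAB and DTNA, with at most 6. Of the other 5 non-keratin filament genes 4 were tested, and 2 were called lower: LMNB2 (log2 fold change -2.18, standard error 0.16, adjusted p = 7.52e-08) and PRPH, the peripherin gene (-2.04, standard error 0.27, adjusted p = 1.44e-05). The median of the list was -1.48, and neither was called by library totals. LMNB1, used above as a reference, had a log2 fold change of -0.65, which was not called and turned to 0.27 by library totals.
Of 7 cytolinkers, giant proteins that tie filaments to other structures, 3 were called higher: DST (5.30), MACF1 (3.60) and DSP (2.39), and PLEC, a vimentin linker named after its values were seen, had a log2 fold change of -1.13 and was not called. The median of this list was -0.41. These are long genes, and with a length offset 1 of the 7 was higher and 4 were lower.
Of 17 lamina partners and lamin-processing genes, 4 were called higher and 1 lower, with a median of 0.0030. SYNE1 (4.33) and SYNE2 (3.10), the nesprins of the outer nuclear membrane, and LBR (2.104), the lamin B receptor, were higher, while BANF1 (-2.27), which binds DNA at the lamina, was lower, though not called by library totals (-1.34) or with either offset (-1.17 and -1.16). ZMPSTE24, the protease that matures prelamin A, was the other higher gene (1.69), named after its values were seen. None of the 17 was called higher with a length offset, and SYNE2 turned to -0.088 with the length and GC offsets.

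A list of 9 genes held kinases that phosphorylate filament proteins and an activator of CDK5. Of these, 2 were called higher, ROCK2 (3.20) and ROCK1 (2.88), and 3 lower. Among the lower ones were AURKB (-1.94) and CDK5 (-1.92), a neurofilament kinase, neither of which was called by library totals or with either offset. The remaining one was PLK1 (-1.87), named after its values were seen. The median was -0.13, and with the length and GC offsets 0 of the 9 were called.
Of 8 chaperones and turnover genes, 2 were higher and 2 lower, with a median of -0.15. CRYAB, a small heat shock protein that binds desmin and vimentin, had 1, 6 and 0 counts in parental and 551, 409 and 479 in mutant libraries (log2 fold change 6.59, standard error 0.47). It passed the filter only through mutant libraries, so nothing is read from its call. HSPB1 (-2.69) and CAPN1 (-2.41), a calpain that cleaves filaments, were lower. Neither was called with the length and GC offsets (-0.32 and -1.40), nor CAPN1 by library totals (-1.49).
Of 6 genes that anchor filaments at the membrane, 4 were higher, UTRN (3.74), DTNA (3.74), VCL (1.81) and DMD (1.59), and none was lower, with a median of 1.70. DTNA encodes a synemin-binding dystrobrevin. It had 1, 2 and 6 counts in parental libraries and 96, 82 and 74 in mutant libraries. DTNA too passed the filter only through mutant libraries, and nothing is read from its call. With a length offset DMD turned to -0.96 and was not called, and 1 gene of the list was higher and 1 lower, the latter TLN1 (-2.51), named after its values were seen.

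**Figure D4:**
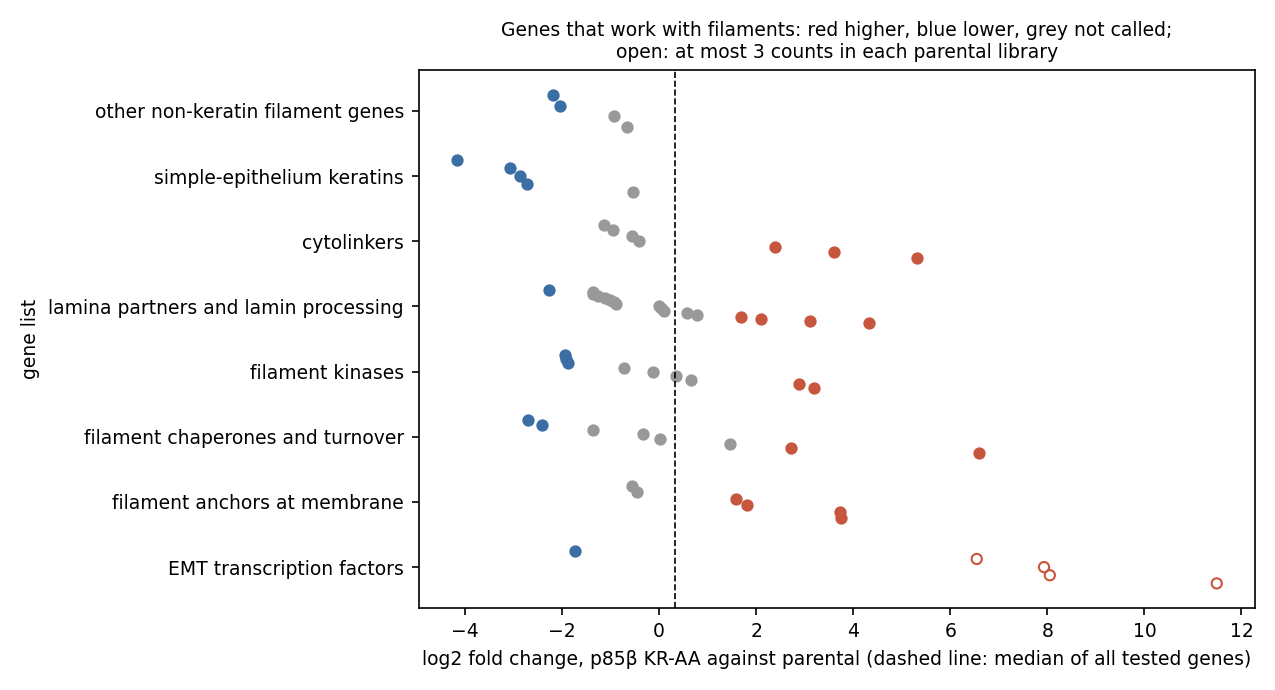
Log2 fold change (p85β KR-AA against parental, TMM) of each tested gene in 8 lists. Red points were called higher, blue lower and grey not called, open points had at most 3 counts in each parental library, so that their position is no bound, and the dashed line is the median of all tested genes (0.32). Keratins lie to the left, and 4 of the 5 tested transcription factors of the epithelial-mesenchymal transition (EMT) to the far right.

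Of 6 transcription factors of the EMT, a change of state in which vimentin is a common marker, 5 were tested, 4 were called higher and 1 lower. The 4 higher ones had at most 3 counts in each parental library and passed the filter only through mutant libraries. Nothing is therefore read from their count. TWIST1 was not tested, with 5, 0 and 1 counts in parental libraries and 0 in each mutant library. ZEB2 had 0 counts in every parental library and 611, 523 and 330 in mutant libraries, at least 71.6-fold higher. TWIST2 was at least 6.57-fold and ZEB1 at least 6.03-fold higher. SNAI2 had 2, 0 and 0 counts in parental and 173, 151 and 109 in mutant libraries. SNAI1, the lower one (-1.73), was named after its values were seen and was not called by library totals or with either offset.

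Markers of other cells that use these filaments were read in the same libraries. Of 13 markers of colonic epithelium 12 were tested, 3 were called higher and 6 lower, with CEACAM5 (5.66) up and LGALS4 (-3.17), KRT8 and KRT18 down. The other 2 higher genes, named after their values were seen, were the cadherins CDH1 (1.82) and CDH17 (2.104), of which CDH1 was not called with either offset and CDH17 not with the length and GC offsets. EPCAM, named likewise, had -0.86, was not called and turned to 0.066 by library totals. CDX2 (-1.98) and VIL1 (-1.66), also named likewise, were called lower, but neither by library totals (-1.06 and -0.75). CDX2 was not called with the length and GC offsets (-1.43), whereas VIL1 was called lower with either offset (-3.32 and -3.80). CDX1 had at most 3 counts in each library. The summed level of the list was 57176 to 79186 CPM in parental and 8823 to 10326 CPM in mutant libraries, and most of it was KRT8, KRT18 and KRT19, which are also in the keratin list.
Of 13 fibroblast or mesenchymal markers 8 were tested and 5 called higher. Among these 5, LUM, COL3A1, DCN and COL6A3 had at most 3 counts in each parental library. They were tested only through their mutant counts, so nothing is read from the count of 5. The sum of the 13 markers went from 117.5 to 136.6 CPM in parental libraries to 4813 to 5648 CPM in mutant libraries, of which FN1 alone had a mean of 4987. LUM, COL3A1 and DCN had means of 5.61, 3.74 and 3.41 CPM, while COL1A2, SPARC, THY1, POSTN and FAP had at most 3 counts in each mutant library. COL1A1 (1.45), PDGFRB (1.40) and S100A4 (0.77), named after their values were seen, were not called, but each was called higher by library totals. With a length offset COL1A1 turned to -0.27 and PDGFRB to -0.051, while S100A4 was called higher (1.94).
Of 12 neuron markers 5 were tested and 3 called higher, UCHL1 (a mutant mean of 264.9 CPM against 0, 2 and 0 parental counts), GAP43 (1.24 CPM) and MAP2 (4.15 CPM). UCHL1 and GAP43 had at most 3 counts in each parental library and were tested only through their mutant counts. MAP2 turned to -0.0015 with the length and GC offsets. DCX, ELAVL4, STMN2 and ELAVL3 had at most 3 counts in each mutant library, and the summed level was 521.8 to 609.5 CPM in parental and 460.5 to 514.3 CPM in mutant libraries. TUBB3, named after its values were seen, carried most of the parental sum, with means of 560.8 and 210.7 CPM (log2 fold change -1.41, not called, and 0.25 with the length and GC offsets).
Of 7 neural progenitor markers 2 were tested and MSI1 was lower (-1.92), with sums of 10.2 to 14.3 and 4.90 to 5.59 CPM. PAX6, the other tested one, was named after its values were seen and went the other way (1.15), without a call. It was called higher by library totals (2.07) and with a length offset (1.71). SOX1, FABP7, HES5 and SOX2 had at most 3 counts in each mutant library. Of 7 glial markers 2 were tested and MBP was higher (2.16). ALDH1L1, the other tested one, was named after its values were seen and went the other way (-0.98), without a call. The sums were 12.5 to 16.6 and 44 to 51.3 CPM, most of it MBP, with means of 10.3 and 45.9 CPM. S100B and OLIG2 had no count in a mutant library. Of 9 skeletal muscle markers 2 were tested and TTN was higher (3.27, but 0.72 with a length offset and 0.17 with the length and GC offsets, neither called), with sums of 0.364 to 1.11 and 2.49 to 2.77 CPM and no count of MYOG, MYF5, MYL1 or ACTC1 in a mutant library. Of 8 endothelial markers 7 were matched and 4 tested. KDR was higher (2, 0 and 0 against 33, 22 and 17 counts) and ESAM (-1.82) and VWF (-1.71) lower. The endothelial sums were 12.1 to 15.01 and 4.45 to 5.29 CPM. KDR and TTN, the latter with 4, 0 and 2.01 parental counts, were tested only through their mutant counts. By library totals none of MSI1 (-1.002), ESAM (-0.90) and VWF (-0.81) was called, MSI1 was also not called with the length and GC offsets (-1.04), and ESAM with neither offset. The part of other cell types in the values of VIM, NEFL, NEFM, SYNM and DES was not tested.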

How the data were processed

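The 3 parental and 3 p85β KR-AA libraries of DLD1 cells were grouped by their titles. The table the authors deposited holds estimated counts, not normalized, and 1 length for each Ensembl gene. Per the submitters' processing notes, HISAT2 2.1.0, RSEM 1.3.1 and DESeq2 1.24.0 were used, with hg18 named as build. The methods add trimming with SeqPrep and Sickle. The annotation and strand setting are not given in the sources used here. Symbols and positions came from GENCODE release 44 lifted to GRCh37 and matched 58884 of 58884 genes, so positions are those of that annotation, and the build behind the counts is not settled. The TruSeq RNA kit does not mark strand.

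Estimated counts were rounded to whole numbers. Low genes were removed by filterByExpr (min.count 10, min.total.count 15), and TMM factors and quasi-likelihood F tests came from edgeR 4.0.16 under R 4.3.3. No covariate was used, and p-values were adjusted by Benjamini-Hochberg over all tested genes. Standard errors were derived from the fold change and the F statistic. TPM used the deposited lengths. Bounds were set against 3 counts in the parental library where they weigh most (0.218 CPM). Alternatives were DESeq2 1.42.0, library totals, other filters and thresholds, robust moderation, a replicate block, leaving out single libraries, a test against 3-fold, and length or length and GC offsets (robust splines with 5 degrees of freedom, MASS 7.3.60.0.1). The code was tested on simulated counts. P-values measure the spread between these libraries only, which may be technical.

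The members and lists were chosen with earlier results of these data known. All members were named, with every called gene of a list, or the 4 with the largest change at a mean of at least 1 CPM where more than 4 were called, and 1 called gene that the rule would name is not reported here. Promoter sequences came from RefSeq. Figures were drawn with matplotlib 3.10.9.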

Additional observations from a re-analysis of the deposited data

How the results depend on the processing

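The counts of members called (4 higher, 2 lower) stayed the same with DESeq2, without the filter, with robust moderation and with a test against 3-fold. They also stayed the same with the other thresholds and with each library left out in turn. In the main comparison all 4 higher members passed the filter only through mutant libraries, so nothing is read from their count. Library totals left 1 lower member (5 lower and 22 higher genes of the accompanying lists, 7050 higher and 976 lower genes in all), and so did the length and GC offsets (1 lower member, 7 higher and 5 lower list genes, 2377 higher and 1647 lower genes in all). In both cases the member lost was LMNA. NES reversed to 0.72 by library totals. With a length offset alone, 8 list genes were higher and 16 lower, against 19 higher and 13 lower of 61 in the main comparison. Over all 16059 genes that offset gave 3130 higher and 2867 lower, and NES was called lower. The higher list genes include ZEB1, ZEB2, SNAI2, TWIST2, CRYAB and DTNA, which passed the filter only through mutant libraries. Nothing is therefore read from the counts of higher list genes. At least 10 counts in every library kept 2 members, LMNA and NES, and so 0 higher and 1 lower, with 2898 genes higher in all. That filter removed every member with a count under 10 in any library. A test against 3-fold gave 2974 higher and 1779 lower genes. A fold of 2 with an adjusted p under 0.05 gave 4289 lower genes and 20 lower list genes, and no fold threshold 5246 and 27.

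The replicate numbers did not pair the libraries, with correlations of -0.14 to 0.12 between same-numbered libraries and -0.18 to 0.23 between others. With the replicate block, 4626 genes were higher and 2827 lower, against 4597 and 2825 without it, and no member or list count changed. Low parental counts limit VIM, SYNM, NEFL and NEFM to broad or bounded folds, and NEFH, INA and GFAP to levels near the limit of detection.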
